A study of Homo sapiens with 4 samples.

Results

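LGR4 and 9 further genes of Wnt receptor feedback and signalling (LGR5, RNF43, ZNRF3, AXIN2, LRP5, LRP6, TCF7L2, LEF1 and FZD7) were followed through SK-BR-3 cells with knockdown of mutant p53, of Pontin, or of both. LGR4 was chosen because its signal was lower with Pontin siRNA, and the other genes because they belong to the same receptor circuit and because Pontin is known as a partner of β-catenin. All 28 probe sets annotated to only 1 of the 10 symbols were taken, out of 41091 probe sets with a single gene symbol. SK-BR-3 is an established human line from breast cancer, amplified for HER2, whose p53 carries a missense mutation in all 4 groups. The groups were p53 shRNA with Pontin siRNA, Pontin siRNA in cells with the shRNA control, p53 shRNA in cells whose titles read sicon, and control shRNA with sicon, with 1 Affymetrix array each. The labels do not spell out sicon, and they call the shRNA control both a control shRNA and an empty vector. Cells were selected with puromycin before the siRNA step, and RNA was collected 24 h after siRNA transfection. The labels do not say whether the arrays came from separate cultures.

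The Wnt pathway works through Frizzled receptors and the co-receptors LRP5 and LRP6, which on binding a Wnt protein hold back the destruction complex and let β-catenin reach TCF/LEF factors in the nucleus. RNF43 and ZNRF3 are membrane E3 ubiquitin ligases that remove Frizzled and LRP6 from the cell surface. R-spondins bind LGR4, LGR5 or LGR6 together with these ligases and take them out of action, which raises the number of receptors. RNF43, ZNRF3, AXIN2, LEF1 and LGR5 are themselves transcribed in response to β-catenin in several tissues, which is why they are called feedback genes. Pontin is the product of RUVBL1, an ATPase that serves chromatin remodellers and the assembly of large protein complexes.

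The promoters of LGR4, of RNF43 and of TCF7L2 are shown because the signals of these genes were on the lower side in both comparisons of Pontin siRNA. Each run holds the 250 bases before a RefSeq transcription start (GRCh38.p14), read 5′ to 3′ on the strand of the gene. Capitals mark the letters CCAAT on either strand, or any of CTTTGAA, or CTTTGAT, or CTTTGTA, or CTTTGTT on either strand, which are forms of the site that TCF/LEF factors bind.
LGR4, chr11:27472791-27473040, minus strand: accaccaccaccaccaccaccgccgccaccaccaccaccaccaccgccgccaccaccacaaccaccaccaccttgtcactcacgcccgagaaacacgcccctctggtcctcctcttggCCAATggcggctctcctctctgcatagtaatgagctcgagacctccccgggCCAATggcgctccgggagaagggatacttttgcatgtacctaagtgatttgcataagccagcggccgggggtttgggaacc
RNF43, chr17:58417535-58417784, minus strand: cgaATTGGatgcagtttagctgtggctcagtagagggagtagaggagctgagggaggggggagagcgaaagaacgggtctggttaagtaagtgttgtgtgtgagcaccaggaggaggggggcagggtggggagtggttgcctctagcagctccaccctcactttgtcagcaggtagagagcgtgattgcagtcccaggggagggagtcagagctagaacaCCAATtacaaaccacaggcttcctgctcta
TCF7L2, first start, chr10:112949997-112950246, plus strand: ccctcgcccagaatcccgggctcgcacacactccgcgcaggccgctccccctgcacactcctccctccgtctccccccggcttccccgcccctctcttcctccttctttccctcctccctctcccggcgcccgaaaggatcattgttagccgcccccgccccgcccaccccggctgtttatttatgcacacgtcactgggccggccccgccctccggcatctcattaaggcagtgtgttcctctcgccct
TCF7L2, second start, chr10:113126383-113126632, plus strand: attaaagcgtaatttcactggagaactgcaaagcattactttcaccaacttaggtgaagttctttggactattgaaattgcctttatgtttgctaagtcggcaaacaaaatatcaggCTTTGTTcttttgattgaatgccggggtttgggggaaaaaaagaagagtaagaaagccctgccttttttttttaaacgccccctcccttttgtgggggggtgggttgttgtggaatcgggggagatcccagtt
The LGR4 window held CCAAT at 2 places, both on the strand of the gene, beginning 132 and 81 bases before the start. The RNF43 window printed held it at 2 places as well, once on each strand. At least 1 CCAAT was found in 32% of 35116 promoter windows of the same length, and 2 or more in 9.53%. No TCF/LEF letters were found in the LGR4 window or the RNF43 windows. The second TCF7L2 window held CTTTGTT, beginning 133 bases before that start, and 12% of all windows held 1 of the 4 forms. These matches describe the letters alone. The RefSeq table matched 5 of the 10 genes with 8 starts. Another RNF43 start, whose window held none of the letters searched, and another TCF7L2 start, whose window held 1 CCAAT, are not printed.

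The values are MAS5 signals, a linear brightness per probe set that the authors' software scaled to a common level on each array. They compare arrays within a probe set and not one gene with another. The array medians were 19.6 with both knockdowns, 16.5 with Pontin siRNA, 16 with p53 shRNA and 15.9 with control shRNA. The array with both knockdowns stood apart, since its 18 hybridization control probe sets averaged 1.42 times those of the control shRNA array and all 18 were higher. Each knockdown was therefore read in 2 pairs with no array in common, of which the first pair does not hold that array. RUVBL1 had a signal of 127.4 with Pontin siRNA against 477.7 with control shRNA, and of 65.8 with both knockdowns against 398.2 with p53 shRNA. RUVBL2, which encodes its partner Reptin, had 2723.3 with both knockdowns, 2770.6 with Pontin siRNA, 2574.7 with p53 shRNA and 2428.2 with control shRNA. All 6 luminal and HER2 amplicon markers of the line were at or above the 75th percentile of signal, with values of 355.6 to 11278.8. Of 11 markers of leukocytes, endothelium, fibroblasts and basal or mesenchymal cells, COL1A1 alone reached it, and the others ranged down to 0.9. Of those others, PECAM1, at 27.5 to 40.7, and KRT5, at 10.1 to 28.0, reached the median signal of all probe sets. No group has a replicate, so a probe set was called lower or higher where both pairs differed at least 1.5-fold, 0.58 in log2, in the same direction. No gene has a p-value here. These are RNA pools of many cells, in which fewer cells with a transcript and less of it per cell cannot be told apart.

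Of the 28 member probe sets, 15 reached the median signal of all probe sets, 15.3, in their mean over the arrays, and 7 were at or above the 75th percentile, 110.3. These 15 probe sets are said here to be kept, and they covered 7 genes, LGR4, RNF43, ZNRF3, LRP5, LRP6, TCF7L2 and FZD7. LGR5, AXIN2 and LEF1 had no probe set above the median. With Pontin siRNA, 2 of the 15 kept member probe sets were called lower and 0 higher. Among all 22794 kept probe sets with 1 gene symbol, 1.24% were called lower and 1.47% higher. Of all these calls 54.1% were higher, a share that ranged from 4.87% to 33.4% under the 4 other scalings and the pseudocount tried. LGR4 was chosen on this contrast, so its call is a description. With p53 shRNA, 0 member probe sets were called lower and 1 was called higher, where the share over all kept probe sets was 0.869% lower and 1.29% higher. Of those calls 59.8% were higher, and 22.3% to 49.1% under the other scalings and pseudocount. No kept member probe set was 1.5-fold apart with opposite signs in either contrast, as 0.983% of all kept probe sets were with Pontin siRNA and 1.12% with p53 shRNA.

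By direction alone, 8 of the 15 kept member probe sets were below 0 in both Pontin pairs and 5 were above. Over all kept probe sets these shares were 29.2% and 34.5%. Of the 8, TCF7L2 gave 6, LGR4, chosen on this contrast, gave 1, and RNF43 gave 1. The 8 are thus not independent of each other, and no trend of the members is read from them. The member counts below and above 0 became 9 and 2 after median centring and 9 and 1 on the hybridization control scale. These scalings moved the median ratio of all kept probe sets from 0.02 to -0.15 and -0.30. Shares over all kept probe sets are not given for them. In both p53 pairs 3 of the 15 were below 0 and 9 above, beside 30.4% and 29.5% of all. Of the 9, TCF7L2 gave 5, FZD7 gave 2, and LGR4 and RNF43 gave 1 each. The 9 became 4 after median centring and 3 on the hybridization control scale, where the median of all kept probe sets moved to -0.13 and -0.18. Of the 7 member probe sets at or above the 75th percentile, 1 was called lower with Pontin siRNA and 0 higher. The 1 is LGR4, chosen on this contrast, so nothing is read from it beside the 1.06% lower and 0.205% higher of all probe sets at that level. With p53 shRNA 0 were called, beside 0.337% lower and 0.222% higher. In the first pair by itself, which leaves out the array with both knockdowns, 4.4% of all kept probe sets were at least 1.5-fold lower with Pontin siRNA and 5.33% higher. With p53 shRNA these shares were 4.54% and 5.35%.

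**Figure D1:**
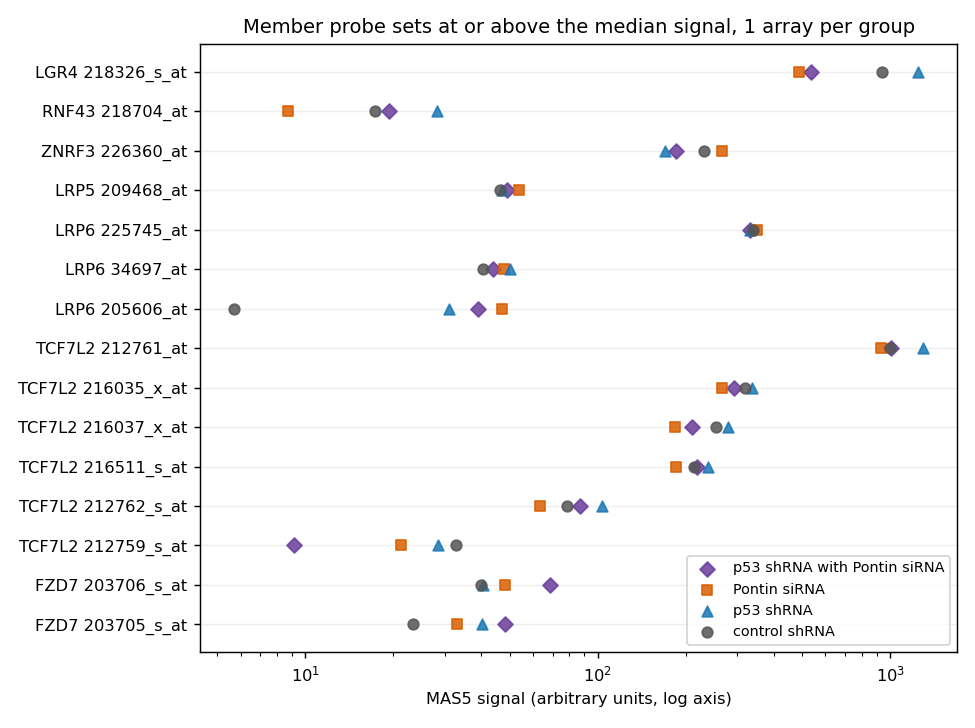
MAS5 signal (log axis) of the 15 kept member probe sets on each of the 4 arrays, 1 point per array, with no error bar because no group has a replicate. For LGR4 both arrays with Pontin siRNA, at 534.1 and 489.6, sit below both arrays without it, at 1241.5 and 937.3, while for LRP6 probe set 225745_at the 4 points lie between 331.4 and 349.0.

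LGR4, the R-spondin receptor found in many epithelia, had a signal of 489.6 with Pontin siRNA against 937.3 with control shRNA. In p53 shRNA cells it was 534.1 with Pontin siRNA and 1241.5 without. Both arrays with Pontin siRNA were thus lower than both arrays without it. LGR4 was 1.91-fold lower in the first pair and 2.32-fold lower in the second, log2 ratios of -0.94 and -1.22. By the smaller of its ratios it stood 7th among the 85 genes called lower with Pontin siRNA, out of 7744 genes at or above the 75th percentile of signal. These values chose LGR4 and are given as a description. They come from probe set 218326_s_at, of a type that can match several transcripts. The other 2 LGR4 probe sets had signals of 0.9 to 15 on the 4 arrays. Probe set 222596_s_at was at 1.8 with both knockdowns, 1.8 with Pontin siRNA, 15 with p53 shRNA and 1.4 with control shRNA. Probe set 230674_at was at 1.4, 0.9, 1.1 and 1.3 on the same arrays, so the lower LGR4 signal rests on 1 probe set.

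With p53 shRNA, LGR4 was higher by 0.41 in log2 without Pontin siRNA and by 0.13 with it, and it was not called. The second of these ratios turned to -0.13 when arrays were centred on their medians and to -0.19 when they were scaled on the hybridization controls. The sum of the single log2 effects gave 648.5 for cells with both knockdowns, where the measured signal was 534.1, a departure of -0.28. This departure depends on the scaling of the array with both knockdowns. The 2 Pontin ratios lay farther apart after median centring, at -0.98 and -1.51, and on the hybridization control scale, at -1.13 and -1.67. LGR4 in cells with both knockdowns stood at 0.57 times its control shRNA signal. LGR5, the related R-spondin receptor known as a marker of intestinal stem cells, had signals of 0.5 to 5.9 over its 2 probe sets. LGR6, the remaining receptor of the family, was added after its values were seen. It had 23.6 with both knockdowns, 18.6 with Pontin siRNA, 17.1 with p53 shRNA and 10.3 with control shRNA, log2 ratios of 0.85 and 0.46 with Pontin siRNA.

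Of the ligases that R-spondins and LGR proteins hold back, RNF43 was dim and ZNRF3 bright on this array. RNF43 had a signal of 8.7 with Pontin siRNA against 17.3 with control shRNA, and 19.3 with both knockdowns against 28.1 with p53 shRNA. Its log2 ratios with Pontin siRNA were -0.99 and -0.54, and the second was short of 1.5-fold as deposited. Under each of the 4 other scalings both ratios passed 1.5-fold and RNF43 was called lower, with mean ratios of -1.09 to -0.92. With p53 shRNA RNF43 was called higher, at 0.70 without and 1.15 with Pontin siRNA, the only member call in that contrast. The array with Pontin siRNA alone was the lowest and the array with p53 shRNA alone the highest. RNF43 kept these directions in both pairs under the 4 other scalings and the pseudocount tried, but its mean signal of 16.9 lay near the median of all probe sets. With log2(signal + 16) the RNF43 ratios with Pontin siRNA were -0.43 and -0.32, both short of 1.5-fold. Its mean p53 ratio was then 0.46 and the p53 call was lost.

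ZNRF3 had a signal of 170.2 with p53 shRNA against 230.2 with control shRNA. With Pontin siRNA in the cells it was 185.5 with p53 shRNA and 266.3 without. Both p53 shRNA arrays were lower than both arrays without it, by 1.35-fold and 1.44-fold, which did not reach the size for a call. The mean log2 ratio was -0.48, and it lay between -0.66 and -0.44 under the 4 other scalings and the pseudocount. With Pontin siRNA the ZNRF3 ratios were 0.21 and 0.12, and the second turned to -0.17 after median centring and -0.32 on the hybridization control scale. RNF43 and ZNRF3, related ligases, thus lay on opposite sides of 0 with p53 shRNA in both pairs.

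Among the receptors, the Wnt co-receptor gene LRP6 differed little over the arrays on its bright probe set. Its probe set 225745_at had 331.4 with both knockdowns, 349.0 with Pontin siRNA, 332.7 with p53 shRNA and 339.0 with control shRNA. The log2 ratios were 0.04 and -0.01 with Pontin siRNA and -0.03 and -0.07 with p53 shRNA. A dimmer LRP6 probe set, 34697_at, had 43.8, 47.6, 50.2 and 40.4 on the same arrays. The third, 205606_at, had 38.9, 47.0, 31.0 and 5.7. This probe set was 8.25-fold higher with Pontin siRNA in the first pair and 1.25-fold higher in the second, and the control shRNA array was the low one. LRP5, the other co-receptor gene, had 49.0 with both knockdowns, 53.6 with Pontin siRNA, 47.0 with p53 shRNA and 46.2 with control shRNA on probe set 209468_at. Its log2 ratios were 0.21 and 0.06 with Pontin siRNA and 0.02 and -0.13 with p53 shRNA. Its other probe set had signals of 1.9 to 12.5.

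FZD7, a Frizzled receptor studied in basal-like breast cancer, was measured by 2 kept probe sets below the 75th percentile. Probe set 203706_s_at had 68.4 with both knockdowns, 48.2 with Pontin siRNA, 40.6 with p53 shRNA and 39.8 with control shRNA. Probe set 203705_s_at had 48.3, 32.9, 40.2 and 23.4 on the same arrays. On both, the array with both knockdowns was the highest and the control shRNA array the lowest. The FZD7 log2 ratios were above 0 in all pairs, from 0.26 to 0.75 with Pontin siRNA and from 0.03 to 0.78 with p53 shRNA, and neither probe set was called. On 203706_s_at the first p53 ratio turned to -0.03 on the hybridization control scale. On 203705_s_at the second Pontin ratio turned to -0.03 after median centring and -0.18 on the hybridization control scale.

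**Figure D2:**
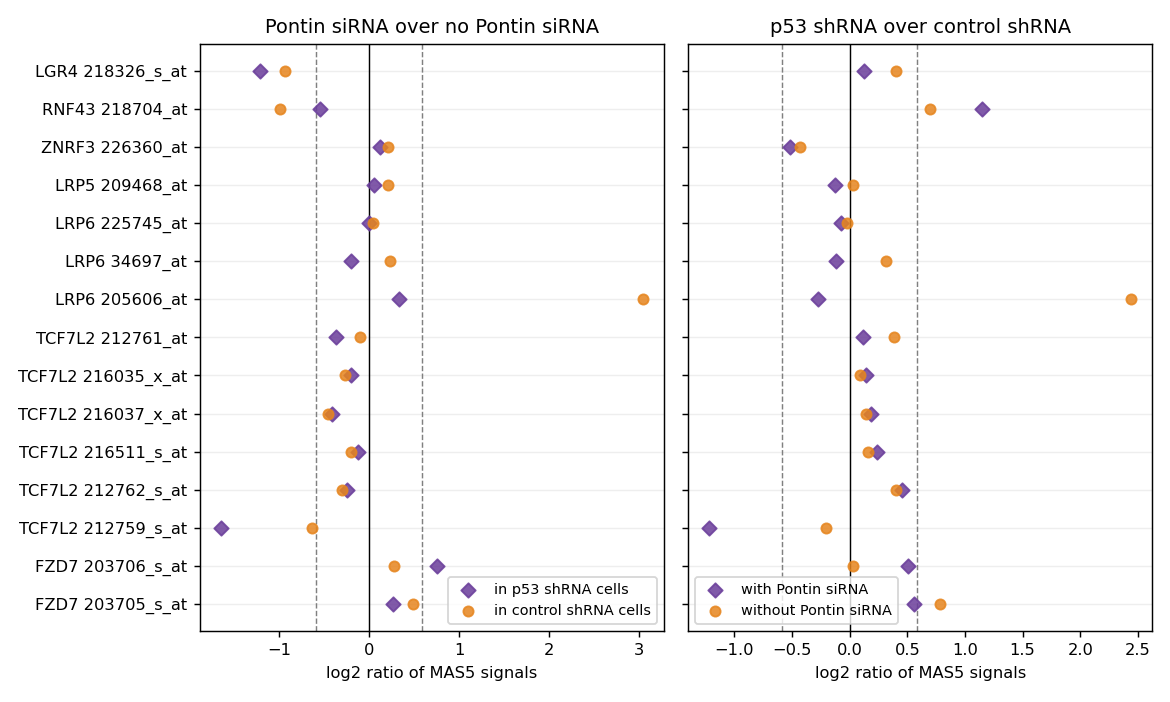
Log2 ratios of the 15 kept member probe sets, with Pontin siRNA over no Pontin siRNA on the left and p53 shRNA over control shRNA on the right. Diamonds are the pair that holds the array with both knockdowns, circles the other pair, and dashed lines mark 1.5-fold. All 6 kept TCF7L2 probe sets lie left of 0 with Pontin siRNA, and ZNRF3 lies left of 0 with p53 shRNA in both pairs.

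TCF7L2, which encodes the TCF/LEF factor TCF4, had 6 kept probe sets. All 6 were below 0 in both pairs with Pontin siRNA, where 29.2% of all kept probe sets were. The 6 probe sets measure 1 gene and are not independent of each other. The count stayed at 6 of 6 under each of the 4 other scalings and the pseudocount. Median centring and the hybridization control scale also moved the median of all kept probe sets, to -0.15 and -0.30. Shares over all kept probe sets are not given for these settings, so nothing is read from the unchanged count. The median of their mean ratios was -0.25, beside 0.02 over all kept probe sets. The probe set 212761_at had 927.4 with Pontin siRNA against 995.0 with control shRNA, and 1007.3 with both knockdowns against 1295.2 with p53 shRNA. Its log2 ratios were -0.10 and -0.36, a small difference in the first pair. Probe set 216037_x_at had 184.0 against 253.1 in the first pair and 209.5 against 279.5 in the second, with -0.46 and -0.42. TCF7L2 probe sets 216035_x_at, 216511_s_at and 212762_s_at had ratios of -0.30 to -0.12 in both pairs. The dimmest kept one, 212759_s_at, was called lower at -0.63 and -1.65, with signals of 9.1 with both knockdowns, 21.2 with Pontin siRNA, 28.5 with p53 shRNA and 32.8 with control shRNA. Without it the 5 brighter TCF7L2 probe sets were all less than 1.5-fold apart. On these 5 TCF7L2 was thus lower in direction and by less than the size for a call. Of the 6 kept probe sets, all but 212761_at are of a type that can match several transcripts. The remaining TCF7L2 probe set, 236094_at, was below the median signal and went the other way, at 3.47 and 0.93. It had 2.1 with both knockdowns, 11.1 with Pontin siRNA, 1.1 with p53 shRNA and 1.0 with control shRNA. The mean Pontin ratio over all TCF7L2 probe sets was -0.04. The call of 212759_s_at was lost with the pseudocount, and 216037_x_at was called lower on the hybridization control scale, at -0.65 and -0.86.

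With p53 shRNA, 5 of the 6 kept TCF7L2 probe sets were above 0 in both pairs, where 29.5% of all kept probe sets were. On these 5 the ratios ran from 0.09 to 0.46. After median centring or scaling on the hybridization controls, only 1 of the 6 was above 0 in both pairs. Those scalings also moved the median of all kept probe sets, to -0.13 and -0.18. On these 5 probe sets the p53 shRNA array was the highest of the 4 and the Pontin siRNA array the lowest, as it was for RNF43 and LGR4. On 212759_s_at the control shRNA array was the highest and the array with both knockdowns the lowest.

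AXIN2, LEF1 and LGR5, the members most used as readouts of β-catenin activity, gave no usable direction. AXIN2, a scaffold of the destruction complex, had signals of 2.0 to 14.9 over 4 probe sets. Its brightest, 222696_at, had 10.4 with both knockdowns, 13.1 with Pontin siRNA, 11.9 with p53 shRNA and 11.0 with control shRNA. LEF1, a TCF/LEF factor gene, had signals of 0.6 to 16.1 over 3 probe sets. Among probe sets below the median signal, 20.5% were at least 1.5-fold apart with opposite signs in the Pontin pairs, against 0.983% of those kept. Of the 13 member probe sets at that level, 5 passed 1.5-fold upward in both Pontin pairs, where 14.3% of all such probe sets did, and 2 passed it with opposite signs. None passed it downward, as 7.43% of all such probe sets did. With p53 shRNA 1 passed it downward, 1 upward and 3 with opposite signs, beside 8.4%, 13.1% and 20.9% of all such probe sets. The 5 upward with Pontin siRNA included LGR5 210393_at at 2.30 and 1.84, while the other LGR5 probe set had -2.77 and -0.22. They also included AXIN2 224498_x_at at 0.63 and 2.90 and 224176_s_at at 0.84 and 0.71. The remaining AXIN2 probe sets, 222696_at and 222695_s_at, lay on both sides of 0.

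**Figure D3:**
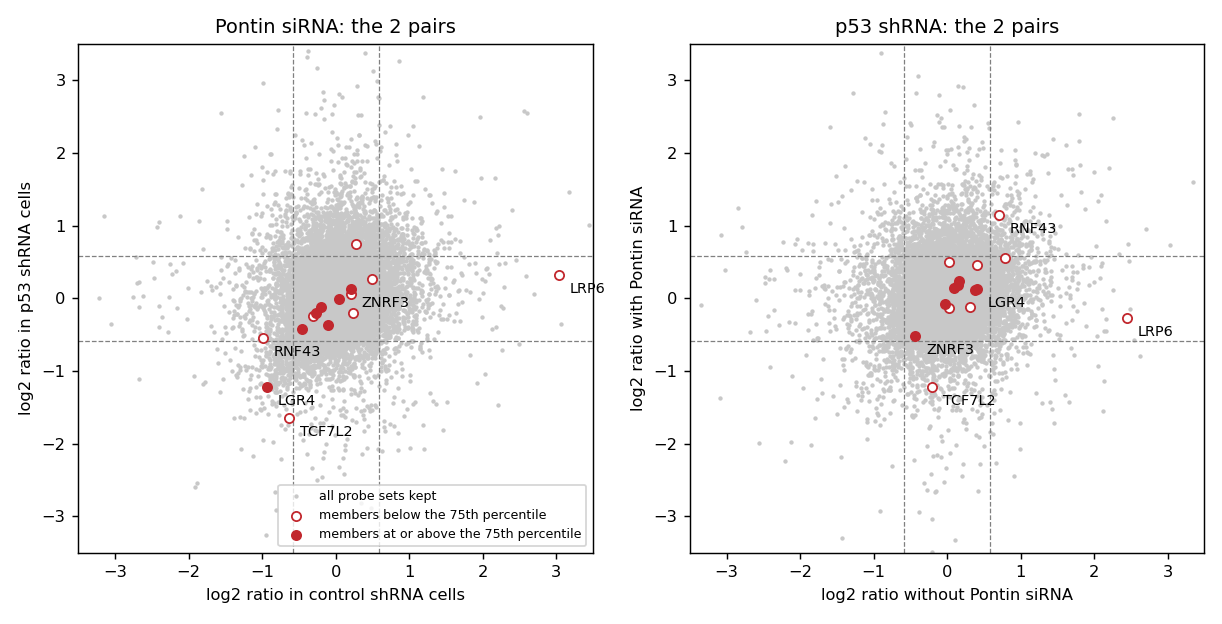
Log2 ratio in the second pair against that in the first, for Pontin siRNA (left) and p53 shRNA (right). Grey points are the 22794 kept probe sets, red points the members, filled where the mean signal was at or above the 75th percentile, and dashed lines mark 1.5-fold. The axes end at 3.5, which leaves out 6 and 8 grey points. LGR4 at -0.94 and -1.22 lies in the lower left corner for Pontin siRNA, and RNF43 at 0.70 and 1.15 in the upper right corner for p53 shRNA.

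The rest of the pathway was taken from a list of 95 genes by role. Of these, 89 had a probe set annotated to a single symbol, and 55 were kept by their brightest probe set. The 6 genes without such a single-symbol probe set were not used here. With Pontin siRNA 2 of the 55 were called lower and 1 higher, against 1.24% and 1.16% of all 12066 genes kept. With p53 shRNA 2 were called lower and 1 higher, against 0.862% and 1.38%. The median of the mean log2 ratios was 0.09 with Pontin siRNA, beside 0.0098 over all genes kept, and 0.06 with p53 shRNA, beside -0.0024. Both list medians turned negative after median centring and on the hybridization control scale, which moved the median of all genes kept to -0.16 and -0.31 with Pontin siRNA and to -0.14 and -0.19 with p53 shRNA. All 17 genes of the cytoplasmic relay and destruction complex were kept, and 0 were called for either knockdown.

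Of the receptors, FZD4, a Frizzled that also binds norrin, was called higher with Pontin siRNA. Its signal was 55.5 with Pontin siRNA against 28.4 with control shRNA, and 63.4 with both knockdowns against 32.7 with p53 shRNA. The log2 ratios were 0.97 and 0.96, and the second was 0.51 on the hybridization control scale, short of a call. Another FZD4 probe set had signals of 0.6 to 9.1. RYK, a Wnt-binding receptor related to tyrosine kinases, had 786.6 with Pontin siRNA against 1127.7 with control shRNA, and 762.1 with both knockdowns against 1260.1 with p53 shRNA. Its ratios were -0.52 and -0.73, just short of a call, and all 3 of its probe sets were below 0 in both pairs. It was called lower on the hybridization control scale, at -0.71 and -1.17.

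DKK1, a secreted inhibitor that binds LRP5 and LRP6, was called for both knockdowns, in opposite directions. It had 24.1 with Pontin siRNA against 43.3 with control shRNA, and 48.3 with both knockdowns against 73.9 with p53 shRNA. The ratios were -0.85 and -0.61 with Pontin siRNA and 0.77 and 1.0 with p53 shRNA. DKK1 kept both calls under the 4 other scalings. With the pseudocount it lost the Pontin call, at -0.56 and -0.48. BCL9, which ties β-catenin to Pygopus proteins, was called lower with Pontin siRNA, with 14.0 against 24.2 in control shRNA cells and 20.4 against 46.0 in p53 shRNA cells. Its ratios were -0.79 and -1.17, and with the pseudocount -0.42 and -0.77.

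TNIK, a kinase that binds TCF4 and stood among the target genes of the list, was called lower with p53 shRNA. Its signal was 106.6 with p53 shRNA against 172.7 with control shRNA, and 101.6 with both knockdowns against 172.3 with Pontin siRNA, ratios of -0.70 and -0.76. The other 2 kept TNIK probe sets gave -0.92 and -0.92, and -1.06 and -1.05. TNIK was also called under each other scaling and with the pseudocount. RSPO4, an R-spondin gene, was called lower at -1.42 and -0.91, with signals of 8.7 to 26.7, and with the pseudocount the second ratio was -0.50 and the call was lost.

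Other genes of the list were closer to even. WNT5A, a ligand of mainly β-catenin-independent signalling, had -0.27 and -0.14 with Pontin siRNA and -0.31 and -0.19 with p53 shRNA. The casein kinase gene CSNK1A1 had -0.09 and -0.13, and -0.04 and -0.08. The corepressor gene TLE1 had 0.16 and 0.15, and -0.10 and -0.11. MYC, a transcription factor gene and common Wnt target, had 0.02 and 0.25, and -0.20 and 0.04. KREMEN1, a Dickkopf receptor gene, had 0.40 and 0.08, and 0.36 and 0.04. CTNNB1, which encodes β-catenin and was added after its values were seen, had 0.13 and -0.03, and 0.02 and -0.14 on its brightest probe set. Its dimmest kept probe set, 223679_at, was not even, at -1.07 and 1.31 with Pontin siRNA and -1.03 and 1.35 with p53 shRNA. That probe set had signals of 26.7 to 68.2. Genes of uneven pairs were AXIN1, a destruction complex scaffold, at 1.52 and 0.44 with Pontin siRNA, WLS, which carries Wnt proteins to the surface, at 0.22 and -0.63, and WNT16, a ligand, at 1.20 and -2.08. WNT16 was uneven with p53 shRNA as well, at -0.21 and -3.49. It was dim, with signals of 4.1 to 46.1, and its other probe set had 0.2 to 6.6.

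**Figure D4:**
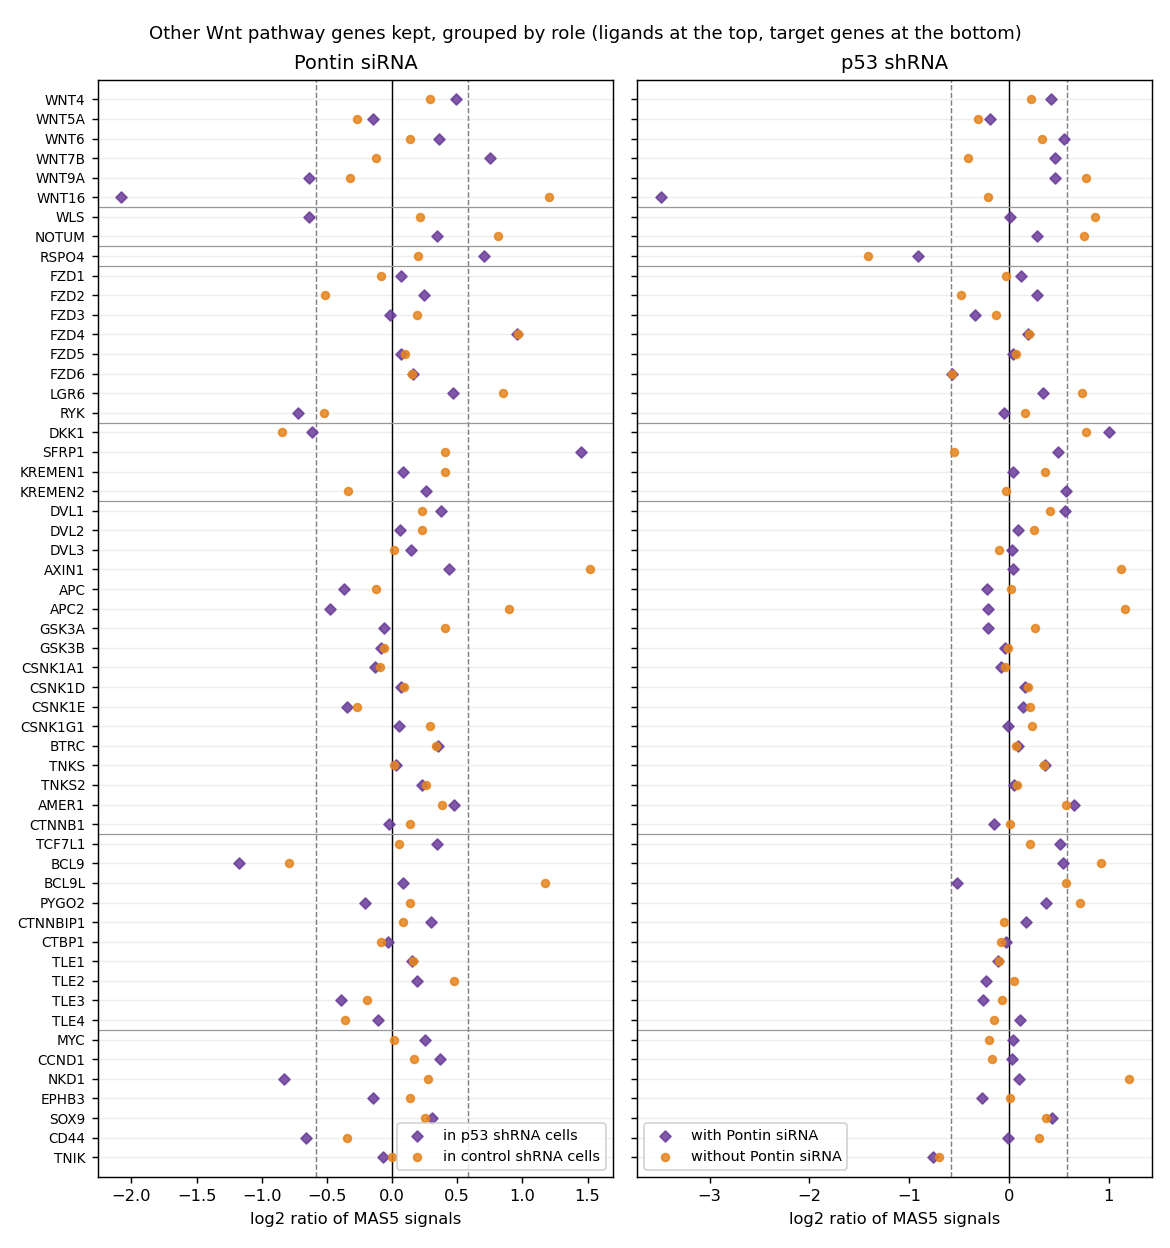
Log2 ratios of the 55 kept genes of the pathway list, 1 gene per line, with Pontin siRNA on the left and p53 shRNA on the right. Diamonds are the pair that holds the array with both knockdowns, circles the other pair, dashed lines mark 1.5-fold and solid lines part the roles. FZD4 lies beyond the right dashed line with Pontin siRNA at 0.97 and 0.96, and TNIK beyond the left one with p53 shRNA at -0.70 and -0.76.

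The genes whose values over the 4 arrays were most like those of LGR4 were sought among the 7744 genes at or above the 75th percentile of signal. Likeness was the distance between log2 signals after each gene had its own mean subtracted. Since LGR4 was chosen for its lower signal with Pontin siRNA, genes like it were lower with Pontin siRNA by construction. The nearest was ZNF267, a zinc finger protein gene, at a distance of 0.04 log2 units. It had signals of 256.9 with both knockdowns, 238.9 with Pontin siRNA, 595.8 with p53 shRNA and 466.0 with control shRNA. CCNI, which encodes the atypical cyclin I, followed at 0.11, with 1677.4, 1640.9, 3767.9 and 2909.0 on the same arrays. All 3 CCNI probe sets were called lower with Pontin siRNA, with ratios between -1.17 and -0.80.

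GRAMD1C, a sterol transfer protein gene, lay at 0.18, TCEAL1, a gene of the transcription elongation factor A-like family, at 0.20, and MT1E, a metallothionein gene, at 0.21. The other MT1E probe set had Pontin ratios of 0.29 and -0.08, and metallothionein copies can share probes, so MT1E is uncertain. Of the members, RNF43 lay at 0.81 from LGR4 and TCF7L2 at 0.85. The 5 genes above were picked as the nearest, so nothing is read from members lying farther than they do. LRP6 lay at 1.15, LRP5 at 1.26, ZNRF3 at 1.45 and FZD7 at 1.64.

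**Figure D5:**
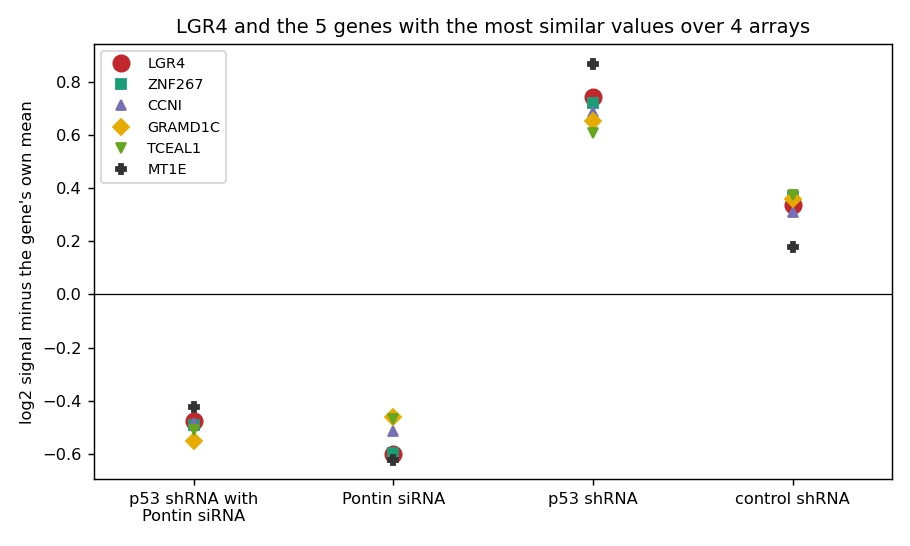
Log2 signal of LGR4 and the 5 genes nearest to it on each array, after subtracting the mean of each gene over the 4 arrays, 1 point per gene and array. All 6 genes lie below 0 on both arrays with Pontin siRNA and above 0 on both arrays without it.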

How the data were processed

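RNA from 4 SK-BR-3 samples, 200 ng of total RNA per array, was measured on 1 Affymetrix array each. The values the authors deposited are signal intensities, linear in brightness, and the submitters' processing notes name MAS5 without a version. In the deposited table the mean without the lowest and highest 2% was 150.0 on each array. Detection calls and scanner files were not used here. The number of arrays limits the precision.

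Gene symbols came from GEO's platform annotation and were updated by Entrez identifier. Of 54675 probe sets, 41097 had 1 symbol, 1801 several and 11777 none listed, and the gene table held 41043 of the single symbols. The 62 control probe sets were left out. The authors' deposited scaling was kept and log2 was taken. The 14 signals of 0 were set to 0.1. Probe sets at or above the median mean log2 signal, 15.3, were kept. A gene was represented by its brightest probe set (19775 genes, 12066 kept). Ratios are differences of log2 signals in 2 pairs. No test was run, since no group has a replicate and a fit over all 4 arrays would take any interaction of the knockdowns for error.

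Every member was described. From the pathway list the text names called genes, the brightest gene of each role and the largest mean ratios, and it names the 5 genes nearest to LGR4. Exceptions are said to be added after their values were seen. The transcript that the p53 shRNA targets is not reported here. The members and lists were chosen with earlier results of these data known. Alternatives were quantile, median, cyclic loess (limma 3.58.1, R 4.3.3) and hybridization control scaling, log2(signal + 16), a 2-fold size, other filters on signal, and other probe set choices. The rest was computed in Python 3.11.15.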

Additional observations from a re-analysis of the deposited data

Results flagged for a closer look

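LEF1 and AXIN2 probe sets moved at least 1.5-fold in opposite directions in the 2 shRNA or siRNA backgrounds, each on single arrays, and the difference between backgrounds was not tested. LEF1 probe set 221557_s_at had log2 ratios of 2.75 and -2.01 with Pontin siRNA and of 2.55 and -2.20 with p53 shRNA. Its signals were 3.5 with both knockdowns, 16.1 with Pontin siRNA, 14.1 with p53 shRNA and 2.4 with control shRNA. LEF1 probe set 210948_s_at had 1.13 and -1.72 in both contrasts, and the third LEF1 probe set did not share this pattern. AXIN2 probe set 224498_x_at had -1.68 and 0.59 with p53 shRNA. All these signals lay at or below 16.1, and 20.5% and 20.9% of all probe sets below the median signal did the same with Pontin siRNA and with p53 shRNA.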

How the results depend on the processing

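The lower LGR4 signal with Pontin siRNA, a mean log2 ratio of -1.08, kept its call under all 4 other scalings and the pseudocount (-1.40 to -1.05). It was -0.84 and not called with the mean over its probe sets, and -0.091 without probe set types shared between transcripts, where only its dimmest probe set is left. The 2 member probe sets called lower with Pontin siRNA, beside 1.24% of all kept, became 3 after quantile, median or cyclic loess scaling (1.65% to 2.16% of all), where RNF43 joined them, and 4 on the hybridization control scale (4.89%). They became 3 in the pair without the array with both knockdowns, taken alone (4.4%), 1 with the pseudocount (0.698%), 1 at or above the 75th percentile (1.06%), and 0 with a 2-fold size (0.149%) or without shared types (1.47%). LGR4, chosen on this contrast, is in each of these counts above 0 and is the whole of each count of 1. Nothing is therefore read from these counts beside the shares of all. The 0 called higher became 5 with no filter on signal (7.18% of all) and 1 in that pair alone (5.33%). For p53 shRNA the 1 called higher became 0 with the pseudocount (0.373%), with a 2-fold size (0.202%) or at the 75th percentile (0.222%), 2 with no filter (6.56%) and 3 in that pair alone (5.35%), and the 0 called lower became 1 with no filter (4.22%). That pair was chosen as an alternative after seeing the data. The pathway list's median with Pontin siRNA was -0.081 after median centring, -0.23 on the hybridization control scale, 0.13 with the mean over probe sets and 0.16 with no filter. With p53 shRNA it was -0.070, -0.12, 0.026 and 0.13 in the same order, 0.036 without shared types and -0.028 at the 75th percentile. Over all kept probe sets, 54.1% of calls with Pontin siRNA were higher, but 31.7% after quantile, 33.4% after cyclic loess, 20.7% after median centring, 28.1% with the pseudocount and 4.87% on the hybridization control scale. With p53 shRNA the share was 59.8%, and 45%, 45.9%, 31.4%, 49.1% and 22.3% in that order. Unless a sentence above gives it, the cause was not tested. Arrays could be matched only by background, as in the 2 pairs of each knockdown, since each group has 1 array. No paired test was run.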

Other observations

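FZD6, a Frizzled receptor of the pathway list that lies outside the naming rule and was chosen after its values were seen, had a signal of 418.3 with p53 shRNA against 622.2 with control shRNA, and of 468.0 with both knockdowns against 693.1 with Pontin siRNA. Both log2 ratios were -0.57, just short of the size for a call. The ratios were 0.16 and 0.16 with Pontin siRNA. The p53 ratios of FZD6 were below 0 under each other scaling and the pseudocount, with means of -0.75 to -0.55, and FZD6 was called lower on the hybridization control scale. There and after median centring its second Pontin ratio was -0.29 and -0.13. For comparison, the p53 ratios were -0.44 and -0.52 for ZNRF3 and -0.70 and -0.76 for TNIK.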
